A study of Mus musculus with 20 samples.

Results

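The 10 genes described here, Hif3a, Tsc22d3, Sgk1, Plin4, Arrdc2, Pdk4, Fkbp5, Zbtb16, Errfi1 and Klf9, are genes that glucocorticoids raise in the brain. They are 10 of the 25239 genes in the count table. They were chosen by name, with the difference between opposite-sex and same-sex housing in control mice already known, so values of that comparison are a description here and no test. RNA of the preoptic area (POA) was measured by bulk RNA-seq in 20 male mice that formed 4 groups of 5. Control and dnFGFR males were placed with a same-sex (SS) or opposite-sex (OS) partner at postnatal day 20, and tissue was taken at postnatal day 320, after 300 days. Each genotype thus had an SS and an OS group.

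The dnFGFR transgene codes for a truncated FGF receptor without its kinase domain, and a rat GnRH promoter directs it to the GnRH neurons, which are few among the cells of the POA. dnFGFR mice came from homozygous breeding pairs, whereas controls came from heterozygous siblings that were mated to each other. OS males bred freely with 1 female, so the housing groups differ in mating and in the presence of litters as well as in the sex of the partner. The POA was cut as a block, and every library contained RNA of neurons, glia, vessels and, in amounts that varied widely, choroid plexus. In such bulk RNA, fewer cells of a type and less RNA per cell cannot be told apart.

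Glucocorticoids, in mice mainly corticosterone, enter cells and bind the glucocorticoid receptor (Nr3c1) and the mineralocorticoid receptor (Nr3c2). The bound receptor moves to the nucleus and attaches to DNA at glucocorticoid response elements, of which the classical form is a palindrome with a short spacer between its arms. In brain, the hormone follows a daily rhythm and rises with stress. Its target genes act in feedback on the receptor (Fkbp5), in immune restraint (Tsc22d3), in kinase signaling (Sgk1, Errfi1), in fuel use and lipid storage (Pdk4, Plin4), in trafficking of membrane proteins (Arrdc2, an arrestin-domain protein) and in transcription (Klf9, Zbtb16, Hif3a).

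The promoters are shown for Sgk1 and Tsc22d3, the only members with a copy of that arm in a window, to place the letters of the response element beside the measured genes. RefSeq promoter windows on GRCm38.p6, from 250 bases before the start of transcription to 50 bases after it, were found for 9 of the 10 genes (17 windows), and Zbtb16 had none. The full palindrome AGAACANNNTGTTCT, searched on both strands, was in 1 window of Sgk1, chr10:21993640-21993939 on the plus strand, 189 bases before the start, and in 3 of 32851 windows of all genes (0.00913%). The shorter core GNACANNNTGTNC was in the same Sgk1 window and in 0.475% of all windows. The arm AGAACA, which lies within the full palindrome, was in 4 of the 17 windows and in 19.0% of all windows. It was in 3 windows of Sgk1 and in the window of Tsc22d3 at chrX:140600473-140600772 on the minus strand. In the sequences, capitals mark this arm on either strand, and in Sgk1 include both arms of the palindrome.
Sgk1: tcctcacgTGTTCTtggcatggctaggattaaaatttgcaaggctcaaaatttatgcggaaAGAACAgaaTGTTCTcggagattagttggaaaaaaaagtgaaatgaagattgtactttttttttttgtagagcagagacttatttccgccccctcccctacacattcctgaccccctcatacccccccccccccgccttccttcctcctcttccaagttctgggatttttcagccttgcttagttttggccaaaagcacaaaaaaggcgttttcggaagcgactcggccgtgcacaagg
Tsc22d3: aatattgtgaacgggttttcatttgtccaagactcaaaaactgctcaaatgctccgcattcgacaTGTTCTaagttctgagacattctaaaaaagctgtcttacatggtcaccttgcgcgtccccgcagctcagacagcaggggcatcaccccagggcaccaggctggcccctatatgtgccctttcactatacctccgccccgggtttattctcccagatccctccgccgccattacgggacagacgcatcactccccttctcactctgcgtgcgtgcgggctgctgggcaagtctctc

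Total counts per mouse ranged from 32353578 to 39871353, so that 1 CPM (a count scaled to library size) stood for 32.4 to 39.9 counts. All 10 genes passed the filter on low counts, and the lowest count of any of them in a mouse was 65. One library stood apart: dnFGFR OS replicate 5 had counts for 18416 genes, against 19101 to 19659 in the other 19 mice. Sacrifice dates are given in the study, and no date held mice of both genotypes. dnFGFR mice were killed on 4 May dates and, for dnFGFR SS replicate 4, in November, and control mice in June and July. Genotype and date can therefore not be told apart.

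At the level of transcripts, Klf9 and Sgk1 were the most abundant of the 10 genes and Plin4 and Hif3a the least. Per kilobase of exon (GENCODE annotation of the same build), the mean level over a group was 48.7 to 56.9 CPM per kb for Klf9 and 26.2 to 53.2 for Sgk1. It was 0.948 to 3.21 CPM per kb for Hif3a and 0.792 to 4.80 for Plin4. For each of the 10 genes the control SS group had the lowest group mean. On GRCm38.p6 (RefSeq), Hif3a lies at chr7:17030993-17062427, Tsc22d3 at chrX:140539528-140600522, Sgk1 at chr10:21882184-21999903 and Plin4 at chr17:56100587-56109948, and all 10 are protein-coding. Plin4 overlaps Hdgfl2, Errfi1 overlaps 1700045H11Rik and Klf9 overlaps Mir1192. How reads over such overlaps were counted is not given in the sources used here.

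Hif3a, an inhibitory member of the hypoxia-inducible factor family, was 5.08, 6.81, 9.83, 4.77 and 5.33 CPM in the control SS mice and 22.4, 18.2, 11.9, 19.5 and 15.9 CPM in the control OS mice. In the dnFGFR SS mice it was 24.3, 30.2, 32.5, 8.78 and 5.90 CPM, and in the dnFGFR OS mice 32.1, 17.98, 28.8, 22.6 and 6.29 CPM. The control groups did not overlap. Each dnFGFR group held mice above every control OS mouse and mice in the range of the control SS mice, namely SS replicates 4 and 5 and OS replicate 5.

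Tsc22d3 (also called GILZ), a leucine zipper protein that restrains inflammatory signaling, was 57.2, 62.7, 63.1, 50.6 and 46.5 CPM in control SS mice and 81.4, 92.3, 79.0, 107 and 92.0 CPM in control OS mice. It was 98.0, 112, 145, 54.7 and 63.9 CPM in dnFGFR SS mice and 123, 122, 122, 103 and 44.5 CPM in dnFGFR OS mice. The same 3 dnFGFR mice were low. Sgk1, a kinase that regulates ion channels and transporters, was 168, 179, 135, 85.6 and 75.04 CPM in control SS mice and 203, 289, 283, 270 and 259 CPM in control OS mice. Its levels were 257, 287, 305, 112 and 186 CPM in dnFGFR SS mice and 263, 243, 309, 286 and 95.5 CPM in dnFGFR OS mice. Here too the control groups did not overlap and the dnFGFR groups did.

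Plin4, a coat protein of lipid droplets, varied most. It was 1.95, 5.36, 5.08, 5.94 and 4.54 CPM in control SS mice, and 27.1, 12.97, 8.23, 13.5 and 7.87 CPM in control OS mice. It was 18.9, 43.6, 58.6, 4.37 and 5.53 CPM in dnFGFR SS mice and 54.6, 17.8, 45.1, 16.8 and 4.21 CPM in dnFGFR OS mice. The highest dnFGFR SS mouse was 13.4 times the lowest. Pdk4, a kinase that shuts off pyruvate dehydrogenase and so spares glucose, was 19.7, 18.1, 15.0, 15.8 and 12.8 CPM in control SS mice and 33.2, 29.0, 20.7, 39.9 and 30.5 CPM in control OS mice. It was 41.8, 47.2, 41.9, 17.6 and 20.8 CPM in dnFGFR SS mice and 41.4, 38.4, 55.1, 39.5 and 22.4 CPM in dnFGFR OS mice.

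Zbtb16 (PLZF), a zinc finger transcription factor, was 25.5, 19.3, 28.9, 20.9 and 24.4 CPM in control SS mice and 62.4, 25.8, 21.9, 33.7 and 31.0 CPM in control OS mice. It was 59.6, 69.2, 92.1, 29.9 and 23.9 CPM in dnFGFR SS mice and 73.0, 53.6, 97.5, 55.0 and 35.6 CPM in dnFGFR OS mice. Its control groups overlapped. Arrdc2 was 15.7, 13.95, 12.4, 11.9 and 11.8 CPM in control SS mice and 22.7, 38.98, 28.9, 18.9 and 23.1 CPM in control OS mice. It was 20.9, 26.5, 34.2, 9.34 and 15.05 CPM in dnFGFR SS mice and 20.3, 23.2, 25.97, 24.1 and 7.60 CPM in dnFGFR OS mice. Its control groups did not overlap, and the same 3 dnFGFR mice were the lowest of that genotype. Fkbp5, a co-chaperone that lowers the affinity of the receptor for its hormone, ranged from 33.7 to 44.4 and 40.9 to 54.6 CPM in control SS and OS mice and from 36.3 to 68.8 and 38.6 to 65.2 CPM in dnFGFR SS and OS mice. Errfi1, an inhibitor of epidermal growth factor receptors, ranged from 26.8 to 33.9, 35.7 to 39.8, 31.8 to 41.9 and 29.3 to 43.8 CPM in the same order. Klf9, a Krüppel-like transcription factor, ranged from 209 to 285, 260 to 287, 235 to 297 and 245 to 286 CPM.

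**Figure D1:**
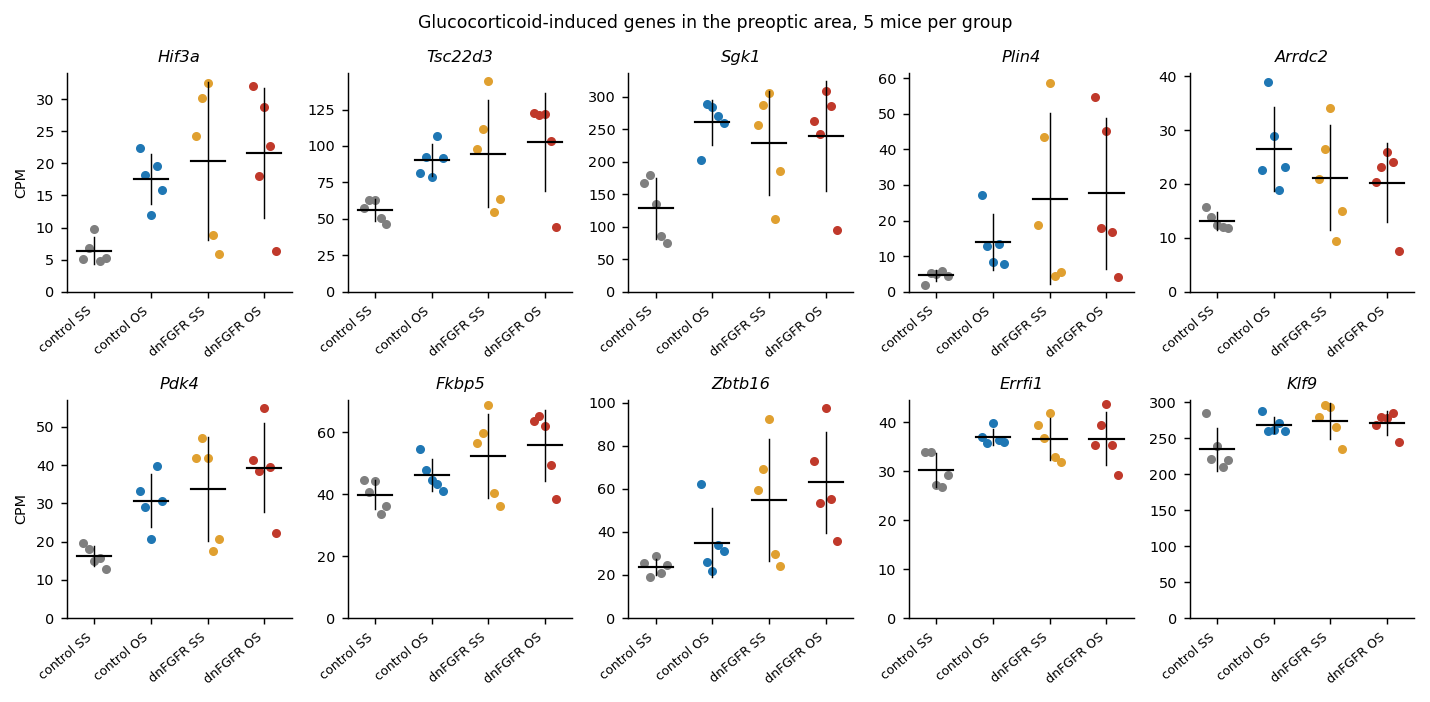
CPM of each of the 10 genes in each of the 20 mice (points, replicates 1 to 5 from left to right within a group), with the group mean (horizontal line) and SD (vertical line, n = 5). Hif3a in control mice lay at 4.77 to 9.83 CPM under SS and 11.9 to 22.4 CPM under OS housing, whereas each dnFGFR group spread over both ranges.

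In dnFGFR mice, OS housing was compared with SS housing to ask whether the 10 genes differ with housing there. The genes were chosen with the control comparison in view, and other results of these data were also known. None of the 10 passed an adjusted p under 0.1 (edgeR), and none of all 16944 genes tested did (0%). DESeq2 called 5 genes on the same mice, none of them among the 10. With DESeq2 at the same threshold, the study reported genes that differed with housing in dnFGFR mice and none in control mice. It left out outlying samples before its test, without naming them, whereas all 10 dnFGFR mice entered here. None of the 10 had an unadjusted p under 0.05, a level that 6.72% of all genes reached. The log2 fold changes had a median of 0.083 for the 10 genes and 0.004 for all genes. Of the 10, 8 were above 0 and 2 below. The largest was that of Pdk4, at 0.22 ± 0.28 (SE, adjusted p = 0.877), followed by Zbtb16 at 0.20 ± 0.34 (adjusted p = 0.911). Hif3a was at 0.08 ± 0.47 (adjusted p = 0.974) and Plin4 at 0.08 ± 0.70 (adjusted p = 0.981).

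The intervals of these differences were wide. The 95% interval of the log2 fold change ran from -0.92 to 1.09 for Hif3a, from -0.58 to 0.71 for Sgk1 and from -1.44 to 1.60 for Plin4. It ran from -0.24 to 0.24 for Errfi1 and from -0.18 to 0.16 for Klf9. With each mouse left out in turn, none of the 10 genes passed and their median ran from -0.032 to 0.286. It was below 0 without dnFGFR SS replicate 4, dnFGFR SS replicate 5 or dnFGFR OS replicate 3, and it was highest, with each of the 10 above 0, without dnFGFR OS replicate 5.

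In control mice the same comparison is a description, since the genes were chosen with it in view. Each of the 10 genes was higher under OS housing, with a median log2 difference of 0.80 against 0.002 for all genes. Plin4 was 3.03 times and Hif3a 2.76 times the SS level, at log2 differences of 1.60 ± 0.32 (SE) and 1.47 ± 0.20. Sgk1 stood at 1.02 ± 0.20, Arrdc2 at 1.01 ± 0.16, Pdk4 at 0.91 ± 0.15 and Tsc22d3 at 0.69 ± 0.09. The smallest differences were those of Fkbp5 at 0.21 ± 0.09 and Klf9 at 0.19 ± 0.07. In 7 genes every OS mouse lay above every SS mouse, as in 0.853% of the 17004 genes tested, and the exceptions were Fkbp5, Zbtb16 and Klf9.

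An adjusted p under 0.1 was reached by Hif3a, Tsc22d3, Sgk1, Arrdc2 and Pdk4, 5 of the 21 genes in the whole table that reached it (0.124%). All 10 had an unadjusted p under 0.05, as did 7.2% of all genes. Just inside the threshold lay Sgk1 with an adjusted p of 0.0944, and just outside it lay Plin4 with 0.104. DESeq2 called 7 of the 10, voom 6, and edgeR with all groups in a single fit called none. How many of all genes these fits called is not given here. The study, with DESeq2 at the same threshold, reported no gene that differed with housing in control mice, unlike the DESeq2 fit here. It screened samples for outliers before its test, whereas all 10 control mice entered here. The cause of this difference was not tested. The edgeR calls rested on single mice. Without control SS replicate 4 none of the 10 genes passed, and without control SS replicate 5 2 did. These are the July mice, from dates that held no OS mouse, and their mean levels of the 10 genes were the lowest of all mice (log2 CPM of 4.64 and 4.61). Without control OS replicate 1 or 4, 3 genes passed. Choroid plexus markers were unevenly spread over these mice. Their summed level was 52.3 to 1120 CPM in control SS mice (median 142) and 68.6 to 2002 CPM in control OS mice (median 1465), and all 8 markers had a log2 difference above 0. Folr1 was at 0 in 1 dnFGFR SS mouse, and no other marker of that list was at 0. Across the 20 mice the summed level of these markers had a Pearson r of 0.14 with the mean of the 10 genes, both taken as deviations from the group means. The part of choroid plexus in the housing difference was not tested.

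Sacrifice date was taken into account where a date held both housings. On the second June date, with 1 SS and 3 OS control mice, every OS mouse lay above the SS mouse in 10 of 10 genes, at a median log2 difference of 0.55. On the third June date, with 1 SS and 2 OS mice, this held for 9 of 10 genes, at a median of 0.70, and Fkbp5 was the exception. In dnFGFR mice, on the first May date, with 1 SS and 3 OS mice, it held for 2 of 10 genes, Tsc22d3 and Fkbp5, at a median of 0.11. On the fourth May date, with 1 mouse of each housing, 5 of 10 genes were higher under OS, at a median of -0.03. Each of these dates held only 1 SS mouse, and the share of all genes with such patterns was not computed. The counts within dates are therefore a description. In a fit within dates with date as a block, the 10 genes had a median of 0.64 in control mice, and none passed the test.

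**Figure D2:**
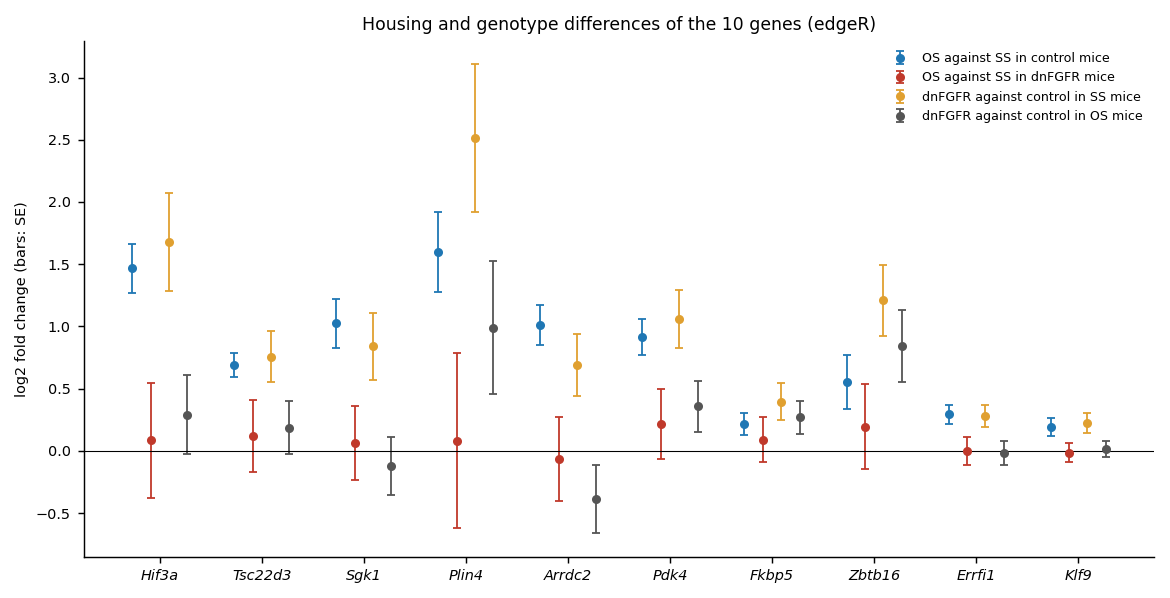
Log2 fold changes of the 10 genes with their SE (bars) for housing (OS relative to SS) within each genotype and for genotype (dnFGFR relative to control) within each housing, from edgeR with 5 mice per group. The control housing differences (0.19 to 1.60) chose the genes, and the dnFGFR housing differences lay between -0.07 and 0.22.

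The interaction between housing and genotype asks whether the housing difference of a gene differs between genotypes. It contains the control comparison and is not independent of how the genes were chosen. For each of the 10 genes the difference was smaller in dnFGFR mice, with a median interaction of -0.63 on the log2 scale against 0.0005 for all genes. It was -1.38 ± 0.56 (SE) for Hif3a, -1.08 ± 0.41 for Arrdc2 and -0.96 ± 0.40 for Sgk1. None of the 10 and none of the 17445 genes tested passed an adjusted p under 0.1 (0%), with adjusted p between 0.963 and 0.966 for the 10. DESeq2 called 1 gene, not one of the 10. Hif3a, Sgk1, Arrdc2 and Errfi1 had an unadjusted p under 0.05, as did 3.41% of all genes. With each mouse left out in turn the median ran from -0.783 to -0.459, the latter without dnFGFR OS replicate 5.

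Between genotypes, SS mice were compared first. This comparison shares the control SS mice with the one that chose the genes, and genotype differs with sacrifice date. Each of the 10 genes was higher in dnFGFR SS than in control SS mice, at a median log2 difference of 0.80 (0.004 for all genes), and none passed an adjusted p under 0.1, which 0.2% of 16992 genes did. All 10 had an unadjusted p under 0.05 in the direction of higher levels in dnFGFR mice, as did 4.12% of all genes (8.63% in either direction). Plin4 was at 2.51 ± 0.60 (SE, adjusted p = 0.182), Hif3a at 1.68 ± 0.39 (adjusted p = 0.182), Zbtb16 at 1.21 ± 0.29 (adjusted p = 0.182) and Pdk4 at 1.06 ± 0.24 (adjusted p = 0.149). The count of calls rested on single mice. Without dnFGFR SS replicate 4, the November mouse, 6 of the 10 passed, and without replicate 5, 4 passed. How many of all genes passed without these mice is not given here, so these counts are not set against a share.

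In OS mice, none of the 10 genes differed between genotypes at an adjusted p under 0.1, which 0.0531% of 16941 genes reached. The median log2 difference was 0.23, with 7 genes above 0 and 3 below. Zbtb16 was the gene with an unadjusted p under 0.05, as were 7.02% of all genes (3.1% of all genes in the direction of higher levels in dnFGFR mice), and stood at 0.85 ± 0.29 (SE, adjusted p = 0.646). Plin4 stood at 0.99 ± 0.53 (adjusted p = 0.743), and Arrdc2 at -0.39 ± 0.27 (adjusted p = 0.799). With each mouse left out in turn the median ran from 0.115, without dnFGFR OS replicate 1, to 0.374, without dnFGFR OS replicate 5, and was 0.143 without dnFGFR OS replicate 3.

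The mean log2 CPM of the 10 genes summarized each mouse. It was 4.83, 4.92, 4.93, 4.64 and 4.61 in control SS mice and 5.79, 5.62, 5.36, 5.62 and 5.45 in control OS mice. In dnFGFR SS mice it was 5.84, 6.11, 6.30, 4.86 and 4.95, and in dnFGFR OS mice 6.09, 5.82, 6.22, 5.80 and 4.75. The control groups lay apart with a narrow spread, while the dnFGFR groups covered each other. The SD was 0.15 and 0.17 in control SS and OS mice and 0.67 and 0.58 in dnFGFR SS and OS mice. For single genes the median SD of log2 CPM over the 10 was 0.21 and 0.27 in control SS and OS mice and 0.63 and 0.59 in dnFGFR SS and OS mice. Over all genes tested, the median SD was 0.12, 0.15, 0.15 and 0.24 in the same order.

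The dnFGFR mice fell apart by sacrifice date. The 7 dnFGFR mice of the first 3 May dates, SS and OS alike, had mean levels between 5.80 and 6.30, and the 3 of the later dates between 4.75 and 4.95. In each of the 10 genes every mouse of the early dates lay above every mouse of the later dates, as in 1.19% of all genes. Hif3a, for example, was 17.98 to 32.5 CPM in the 7 mice and 5.90 to 8.78 CPM in the 3. Plin4 was 16.8 to 58.6 CPM in the 7 mice and 4.21 to 5.53 CPM in the 3. This split was chosen after the values were seen and is a description.

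**Figure D3:**
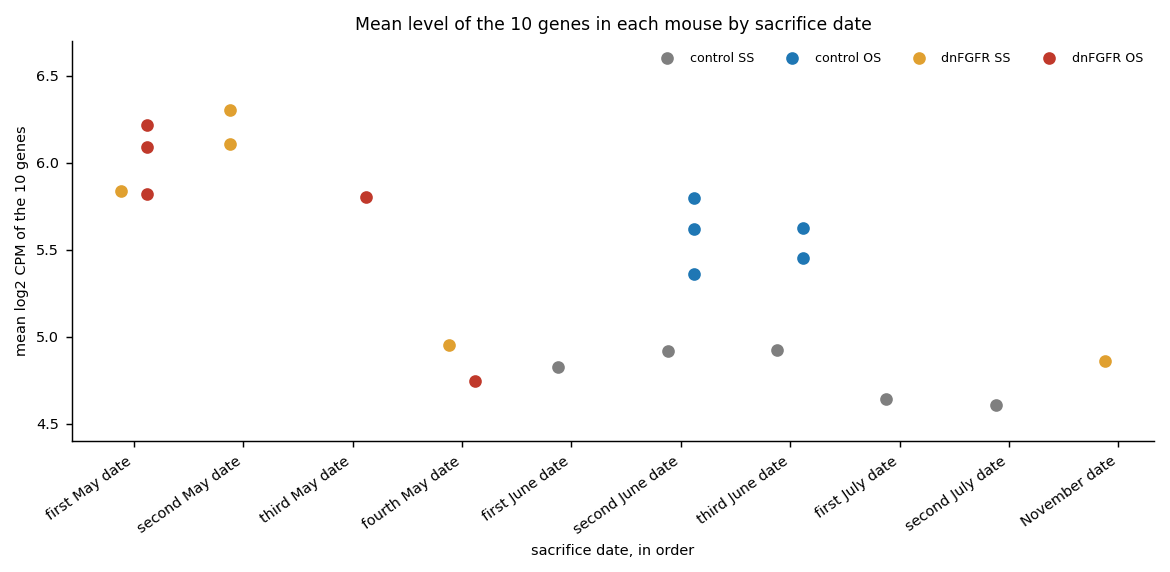
Mean log2 CPM of the 10 genes in each mouse, by sacrifice date in order and colored by group. The 7 dnFGFR mice of the first 3 May dates lie at 5.80 to 6.30 and the 3 of later dates at 4.75 to 4.95, and the control OS mice, all of the second or the third June date, lie at 5.36 to 5.79. The 2 control SS mice of those dates lie at 4.92 and 4.93, and the 3 of dates without OS mice at 4.61 to 4.83.

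The 10 genes varied together across mice within groups. After removal of the group means, all 45 pairs of genes had a positive Pearson r over the 20 mice, with a median of 0.72 (0.35 to 0.90) and a median Spearman rho of 0.67. All pairs of tested genes had a median r of 0 and quartiles of -0.26 and 0.26. The closest pair was Hif3a and Plin4 (r = 0.90, rho = 0.84), followed by Hif3a and Tsc22d3 (r = 0.89, rho = 0.85). The least alike were Plin4 and Klf9 (r = 0.35, rho = 0.39). Against the mean of the other 9 genes, Hif3a had the highest r at 0.94 and Klf9 the lowest at 0.60. Some of these mice shared a sacrifice date, and the values are given as a description.

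This covariation was chiefly that of the dnFGFR mice. Among the 10 dnFGFR mice the 45 pairs had a median r of 0.87 (0.71 to 0.98), over mice that fall into the 2 clusters by date given above. Within the 7 mice of the first 3 May dates the median was 0.48, with 40 pairs positive and 5 negative, and all gene pairs in these mice had quartiles of -0.41 and 0.41. Among the 10 control mice the median was 0.26, with 32 pairs positive and 13 negative, and the quartiles of all gene pairs were -0.29 and 0.29. In control mice, Fkbp5 and Hif3a kept a high r with the mean of the other 9 genes (0.76 and 0.74), whereas Plin4 was at 0.06, Errfi1 at 0.04 and Arrdc2 at -0.17. Without the 2 mice farthest from the median, dnFGFR OS replicate 5 and dnFGFR SS replicate 4, the median r over 18 mice was 0.58 with all 45 pairs positive. The number of genes with counts had an r of 0.63 with the mean of the 10 genes over 20 mice and 0.14 without the same 2 mice. For total counts the r was -0.14.

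**Figure D4:**
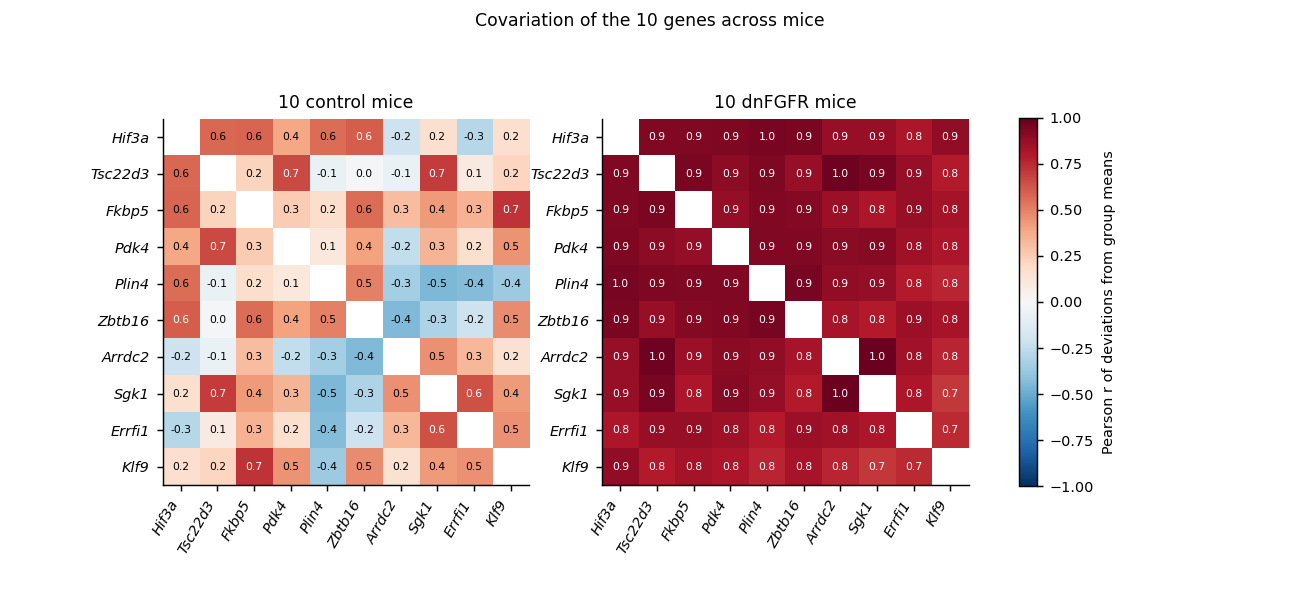
Pearson r between each pair of the 10 genes, as deviations of log2 CPM from the group means, in the 10 control mice (left) and the 10 dnFGFR mice (right). The pairs had a median r of 0.26 in control mice and 0.87 in dnFGFR mice.

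The genes outside the 10 whose deviations were most like their mean were Gpt2, an alanine aminotransferase (r = 0.95), Tma16 (r = 0.94), Zfp276 (r = 0.94), Slc2a1, the glucose transporter of the blood-brain barrier and glia (r = 0.93), and Adipor2, a receptor for adiponectin (r = 0.92). The quartiles of r over 15278 genes with a mean of at least 1 CPM were -0.28 and 0.29. Slc2a1 was 83.0 to 107 CPM in control SS mice and 121 to 142 CPM in control OS mice, and 94.0 to 179 and 104 to 168 CPM in dnFGFR SS and OS mice. Its groups were thus apart in control mice and overlapped in dnFGFR mice, as for Hif3a. The most opposite were Zfp869 (r = -0.89), Slc40a1, the iron exporter ferroportin (r = -0.89), and Plekho2 (r = -0.85). Over the 10 control mice alone r was 0.86 for Gpt2, 0.62 for Slc2a1 and -0.49 for Slc40a1.

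A list of 26 other genes raised by glucocorticoids was set beside the 10. Of these, 24 had a positive r with the mean of the 10 genes over the 20 mice, at a median of 0.69. The median was 0.80 in dnFGFR mice alone and 0.16 in control mice alone. The highest values were those of Mfsd2a, a lipid transporter of brain endothelium (r = 0.90), Gjb6, a gap junction protein of astrocytes (r = 0.89), Map3k6 (r = 0.86) and Rasd1 (r = 0.85). In control mice alone r was 0.39 for Mfsd2a, 0.56 for Gjb6, 0.05 for Map3k6 and 0.33 for Rasd1. Dusp1, a phosphatase that is also an immediate early gene, was at -0.52, and Nedd9 at -0.16. Per1, a gene of both the clock and the glucocorticoid response, was at 0.39.

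By housing, 25 of the 26 genes were tested and none passed in dnFGFR mice, with 15 above 0, 10 below and a median log2 difference of 0.05. The farthest from 0 were Cebpb at -0.61 ± 0.21 (SE, adjusted p = 0.726), Ddit4 at -0.35 ± 0.28 (adjusted p = 0.822) and Per1 at -0.28 ± 0.13 (adjusted p = 0.726). In control mice, 23 of 25 were above 0 at a median of 0.28, and 2 passed, Mfsd2a at 0.45 ± 0.08 (adjusted p = 0.0607) and Gjb6 at 0.38 ± 0.07 (adjusted p = 0.0944). Between genotypes none of the 25 passed. In SS mice 24 of the 25 were above 0 at a median of 0.39, and in OS mice 16 at a median of 0.02. Of all genes, 50.9% were above 0 by housing in control mice and 51.6% between genotypes in SS mice. Both comparisons share the control SS mice, and genotype differs with sacrifice date. The list was chosen with earlier results of these data known, so its counts are a description. None passed in the interaction.

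The receptors moved the other way from mouse to mouse, more so in dnFGFR than in control mice. Over all mice, the r with the mean of the 10 genes was -0.66 for Nr3c1 and -0.71 for Nr3c2. It was -0.73 and -0.75 in dnFGFR mice alone, which fall into the clusters by date given above. In control mice alone it was -0.48 and -0.33. The median over the 8 genes for corticosteroid receptors and steroid handling was -0.18. This median was -0.29 in dnFGFR mice alone and -0.08 in control mice alone. None of the 7 tested genes of that list passed in any of the 5 comparisons. By group, Nr3c1 was 105 ± 6.39, 103 ± 12.8, 107 ± 10.1 and 118 ± 25.3 CPM (SD, n = 5) in the SS and OS groups of control mice and then of dnFGFR mice. Among 8 genes of the stress axis peptides, such as Crh and Avp, 7 were tested, none passed in any comparison, and the median r was 0.24. Avp was at -0.95 ± 0.82 (SE, adjusted p = 0.830) between housings in dnFGFR mice.

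Immediate early genes, which neurons and vessels switch on within minutes of a stimulus, had a negative r with the mean of the 10 genes in 13 of 17 cases, at a median of -0.34 (-0.44 in dnFGFR mice alone and 0.04 in control mice alone). Btg2 was at -0.71 and Fos at -0.64 over all mice, and at -0.36 and -0.10 in control mice alone. In dnFGFR mice all 17 were lower under OS housing, at a median log2 difference of -0.33, whereas 50.9% of all genes were higher. None passed the test, and 1 had an unadjusted p under 0.05 (6.72% of all genes). Junb was at -0.79 ± 0.26 (SE, adjusted p = 0.726), Egr4 at -0.70 ± 0.36 (adjusted p = 0.731) and Egr2 at -0.58 ± 0.34 (adjusted p = 0.771). In control mice 11 were lower and 6 higher, at a median of -0.10. An unadjusted p under 0.05 was reached by 7 of the lower and 1 of the higher genes, and by 7.2% of all genes. Btg2 alone passed and fell by 1.02 on the log2 scale, ± 0.18 (SE, adjusted p = 0.0708). The 16 clock genes had a median r of 0.17, led by Per2 at 0.71, and none passed in any comparison.

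Markers of other cell types were compared with the 10 genes in the same way. The summed level of 6 mural markers had an r of -0.66 with the mean of the 10 genes, and the median r of the single markers was -0.30. For 7 neuron markers the summed level was at -0.55 and the median at -0.35, and for 7 endothelial markers they were at -0.37 and -0.39, from -0.77 for Tek to 0.72 for Ly6c1. The 6 astrocyte markers differed in sign by measure, at -0.25 for the summed level and 0.13 for the median. These values are over all 20 mice. In dnFGFR mice alone, which fall into the clusters by date given above, the medians were -0.36 for mural and -0.42 for neuron markers. They were -0.43 for endothelial and 0.23 for astrocyte markers. In control mice alone the medians were -0.13, 0.0008, -0.16 and -0.30 in the same order. Summed mural markers were 266 to 297 and 257 to 274 CPM in control SS and OS mice and 212 to 257 and 224 to 279 CPM in dnFGFR SS and OS mice. No mural or endothelial marker was at 0 in any mouse, and none of either list passed in any comparison. In SS mice, 6 of 6 mural and 6 of 7 endothelial markers were lower in dnFGFR than in control mice. Of these, 4 and 5 had an unadjusted p under 0.05 (edgeR), as did 8.63% of all genes in either direction. By housing in control mice, 4 of 6 mural and 6 of 7 endothelial markers were lower under OS. The 7 markers of the preoptic area, which include Gnrh1 and Esr1, summed to 22.4 to 46.8 CPM over all mice, and none was at 0 in any mouse. Markers of the striatum summed to 1440 to 2906 CPM. The part of cell makeup in the covariation was not tested.

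**Figure D5:**
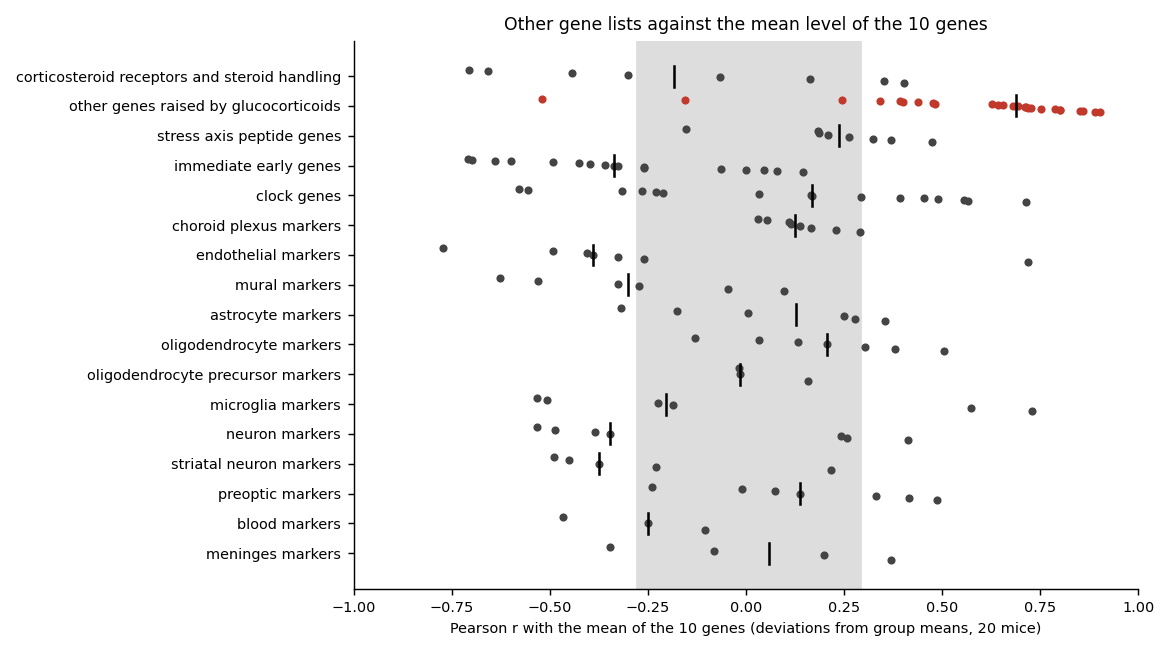
Pearson r of each gene of the other lists with the mean of the 10 genes (deviations from group means, 20 mice), with the median of each list (vertical line). The shaded band spans the quartiles over 15278 genes (-0.28 to 0.29), and the 26 other genes raised by glucocorticoids (red) have a median of 0.69.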

How the data were processed

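The deposited table holds whole-number counts per gene for 25239 genes, not normalized. The authors aligned reads with HISAT2 to GRCm38 and counted them with Rsubread on RefSeq genes. The submitters' notes also name DESeq2 1.36.0. Options for strand, multiply mapped reads and overlapping genes are not given in the sources used here. The table has 20 further columns that belong to no described sample and were not used.

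Counts were tested with edgeR 4.0.16 (filterByExpr, TMM, quasi-likelihood test) in R 4.3.3, with Benjamini-Hochberg adjustment over all genes tested and a threshold of 0.1, separately on the 10 mice of each comparison and on all 20 for the interaction. Log2 CPM used a prior count of 2. Genes named outside the 10 were those of fixed lists that passed a comparison, the 3 with the largest absolute change in dnFGFR mice, and the 5 most and 3 least like the mean of the 10. Other list genes named for their r or their function were chosen after their values were seen. The members and lists were chosen with earlier results of these data known. Steps were tested on simulated data. Depth was 32353578 to 39871353 counts per mouse. Among the 40 pairs of libraries within a group, none was alike within sampling noise, and pairs across groups were not checked. Alternatives were DESeq2 1.42.0, voom of limma 3.58.1, RLE size factors, other filters and thresholds, a replicate block, all groups in 1 fit, fits within sacrifice dates and leaving out each mouse.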

Additional observations from a re-analysis of the deposited data

Results flagged for a closer look

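Dixon's ratio, the gap of the lowest or highest mouse to its nearest neighbor over the range of the group, was computed for log2 CPM of the 10 genes in 4 groups, and 4 of 40 sets of 5 mice passed the critical value of 0.71. Chance alone passes about 1 in 20 of independent sets. The 10 genes varied together over the same mice, so these sets are not independent. dnFGFR OS replicate 5 was the lowest mouse for Tsc22d3, at 44.5 CPM against 103 CPM in the next (ratio 0.828), for Sgk1, at 95.5 against 243 CPM (ratio 0.793), and for Arrdc2, at 7.60 against 20.3 CPM (ratio 0.799). Control SS replicate 1 was the lowest mouse for Plin4, at 1.95 against 4.54 CPM (ratio 0.756).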

How the results depend on the processing

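In dnFGFR mice, between genotypes in OS mice and in the interaction, none of the 10 genes passed under any alternative. In control mice the 5 calls became 7 with DESeq2, 6 with voom, without a filter and with at least 10 counts in every mouse, 4 at an adjusted p under 0.05, 0 with all 4 groups in 1 fit and 0 within sacrifice dates, where fewer mice were fitted and the median log2 difference was 0.637 in place of 0.80, and 0 to 5 when each mouse was left out. In SS mice the count of calls between genotypes rose from 0 to 4 with DESeq2, 1 without a filter and 3 with the replicate block, and was 0 to 6 when each mouse was left out. How many of all genes passed under these alternatives, in control or in SS mice, is not given here. Replicate numbers did not pair the mice: same-numbered mice had deviations with r from -0.062 to 0.259, and the replicate block changed no other call of the 10 genes. The cause of these changes was not tested. The median r of the 45 pairs moved from 0.72 to 0.578 without the 2 farthest mice, and, in settings added after the data were seen, to 0.257 in control mice alone, 0.871 in dnFGFR mice alone and 0.483 in the 7 dnFGFR mice of the first 3 May dates. Single genes kept their sign in 190 of 190 values in control mice and 180 of 180 between genotypes in SS mice, and changed it in 34 of 190 in dnFGFR mice (9 genes), 7 of 180 between genotypes in OS mice and 2 of 280 in the interaction. The lowest count of any of the 10 genes was 65, for Plin4 in a control SS mouse.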
